A study of Mus musculus with 18 samples.

Results

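Type I interferon-stimulated genes are the genes that a cell switches on when interferon alpha or beta binds its receptor. A list of 34 such mouse genes was followed here by gene symbol through 18 bulk RNA-seq libraries of inflamed colon and of colorectal tumours. All 34 were present in the deposited tables, which hold 54532 genes, and all 34 passed the filter on low counts in every comparison. The list was set by name and not by how the genes moved, but with earlier results of these data known.

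All mice were labelled C57BL/6 and belonged to 1 of 2 lines, each with knockout (KO, -/-) and wild-type (WT, +/+) animals. Il1f9 encodes interleukin-36 gamma, an agonist of the interleukin-36 receptor, and Il1f5 encodes the antagonist of that receptor. Tumours came from mice treated with azoxymethane, a colon carcinogen, and dextran sulfate sodium (DSS), a polymer that injures the colon epithelium. They were labelled Il1f9 KO, Il1f9 WT, Il1f5 KO and Il1f5 WT, with n = 2 libraries in each group. Colitis samples were 0.5 cm pieces of distal colon from mice that drank 2.5% DSS for 5 days and then water for 2 days. They were labelled Il1f9 KO and Il1f9 WT with n = 2 each, and Il1f5 KO and Il1f5 WT with n = 3 each. No untreated colon is among these samples, so every group had been exposed to DSS. Ages are not given in the labels. The labels do not say whether tumours were pooled or how the KO alleles were made.

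As background, type I interferons signal through the receptor chains IFNAR1 and IFNAR2 and the kinases JAK1 and TYK2. These activate a complex with STAT2 and IRF9 that binds the interferon-stimulated response element in target promoters. The targets include sensors of foreign nucleic acid, enzymes and binding proteins that block viral RNA and protein synthesis, and inhibitors that end the signal. In the gut, epithelial cells also answer type III interferons (lambda), which use another receptor and the same complex, so the targets do not tell the 2 ligand families apart.

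The core of the response element was searched in the RefSeq promoter table (build GRCm38.p6), which gives 250 bases before to 50 bases after each gene start. The motif was GAAANNGAAA, or TTTCNNTTTC on the other strand, and the start positions of its matches are counted from the gene start. The table held 25 of the 34 genes. Of these, 14 had at least 1 match, which is 56%, against 3.99% of the 27025 genes in the table. Isg15 had 3 matches, at -78, -72 and -66, and Oas1a, Oas1g, Bst2, Ifit1, Ifit3 and Ifit3b had 2 each. No match was found in these windows for 11 genes, which were Irf7, Irf9, Oasl1, Oasl2, Ifi44, Samd9l, Herc6, Xaf1, Ifi35, Cmpk2 and Ifit2. The table had no entry for Mx1, Mx2, Oas2, Usp18, Dhx58, Zbp1, Rtp4, Parp14 and Ifi27l2a. The promoters below are those of named genes with the smallest p in the comparisons that follow, 3 with a match and 2 without. Capitals mark the motif. They lie at chr2:62646206-62646505 (minus strand) for Ifih1, chr17:78882523-78882822 (minus) for Eif2ak2, chr5:120777610-120777909 (minus) for Oas3, chr7:141266375-141266674 (minus) for Irf7 and chr11:72301379-72301678 (plus) for Xaf1.
Ifih1: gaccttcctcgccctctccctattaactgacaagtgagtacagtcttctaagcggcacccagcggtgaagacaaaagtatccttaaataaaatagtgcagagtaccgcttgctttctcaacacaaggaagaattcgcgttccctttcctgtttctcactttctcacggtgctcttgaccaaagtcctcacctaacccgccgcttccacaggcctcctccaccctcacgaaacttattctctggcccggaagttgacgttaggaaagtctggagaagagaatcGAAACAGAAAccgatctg
Eif2ak2: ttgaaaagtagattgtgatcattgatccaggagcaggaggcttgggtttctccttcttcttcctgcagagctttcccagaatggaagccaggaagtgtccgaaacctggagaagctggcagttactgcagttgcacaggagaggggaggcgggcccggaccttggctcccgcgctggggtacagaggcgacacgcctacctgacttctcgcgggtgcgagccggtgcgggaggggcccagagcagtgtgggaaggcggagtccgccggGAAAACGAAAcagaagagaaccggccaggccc
Oas3: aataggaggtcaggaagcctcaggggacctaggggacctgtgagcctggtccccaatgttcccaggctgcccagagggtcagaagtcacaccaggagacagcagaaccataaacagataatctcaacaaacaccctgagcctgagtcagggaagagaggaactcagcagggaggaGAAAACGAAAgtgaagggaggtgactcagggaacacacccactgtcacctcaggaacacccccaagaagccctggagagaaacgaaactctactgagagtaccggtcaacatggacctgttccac
Irf7: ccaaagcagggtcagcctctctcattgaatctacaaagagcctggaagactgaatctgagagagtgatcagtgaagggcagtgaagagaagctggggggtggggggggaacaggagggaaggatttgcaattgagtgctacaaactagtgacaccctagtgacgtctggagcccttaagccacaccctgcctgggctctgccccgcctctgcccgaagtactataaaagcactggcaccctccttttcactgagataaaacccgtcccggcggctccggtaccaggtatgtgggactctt
Xaf1: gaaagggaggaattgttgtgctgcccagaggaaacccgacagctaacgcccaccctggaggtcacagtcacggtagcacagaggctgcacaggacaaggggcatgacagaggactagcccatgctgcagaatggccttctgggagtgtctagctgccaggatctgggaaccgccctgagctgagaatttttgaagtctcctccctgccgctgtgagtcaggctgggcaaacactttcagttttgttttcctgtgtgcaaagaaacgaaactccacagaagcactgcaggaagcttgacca
The match began at 32 in Ifih1, at 18 in Eif2ak2 and at -75 in Oas3, each on the gene's own strand.

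Library totals ran from 16621611 to 23776174 counts, and the 34 genes together took 0.105 to 0.529% of them. The lowest count of any of the 34 genes in any library was 37. Il1f9 was at 0.0602 ± 0.0851 CPM (read counts scaled to library size with TMM factors) in Il1f9 KO tumours and 72.2 ± 41.2 in Il1f9 WT tumours (SD, n = 2 each). In colitis it was at 0.291 ± 0.341 CPM in Il1f9 KO and 8.05 ± 5.13 in Il1f9 WT (SD, n = 2 each). Il1f5 went against its label: it had 5.35 to 10.0 CPM in tumours and 1.91 to 2.49 CPM in colitis of the libraries labelled Il1f5 KO, and 0 counts in the other 13 libraries. The files do not show which part of the gene was deleted, so these groups are called by their label. Cell type markers also moved with the groups. In colitis labelled Il1f5 KO, summed smooth muscle markers were 3275 to 4779 CPM, against 1981 to 2223 in Il1f5 WT, with 6 of 8 genes called higher, and endothelial markers were 241 to 313 CPM, against 145 to 155 CPM in Il1f5 WT, with 8 of 8 called higher. In colitis Il1f9 KO, macrophage markers were 163 to 209 CPM, against 464 to 599.6 in Il1f9 WT, with 9 of 10 genes called lower, and neutrophil markers were 199 to 263 CPM, against 773 to 1448 CPM in Il1f9 WT, with 6 of 8 called lower. Smooth muscle markers were 4180.3 to 4660.0 CPM in colitis Il1f9 KO, against 1471 to 2622 CPM in Il1f9 WT, with 7 of 8 called higher, while 5 of 8 endothelial and 6 of 8 fibroblast markers were called lower. Fibroblast markers were 2874 to 3059 CPM in colitis labelled Il1f5 KO, against 1791 to 1963 CPM in Il1f5 WT, with 7 of 8 called higher. Markers of colon epithelium were 27769 to 28210 CPM in colitis Il1f9 KO, against 14700.1 to 18590 CPM in Il1f9 WT, with 5 of 10 called higher, and 18884 to 22898 CPM in colitis labelled Il1f5 KO, against 21118 to 24383 CPM in Il1f5 WT, with 3 of 10 called lower. Of 8 markers of plasmacytoid dendritic cells, major makers of type I interferon, 6 or 7 could be tested, and at most 1 was called in either direction in any KO comparison. In bulk tissue fewer cells of a type and less RNA per cell cannot be told apart.

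The 34 genes moved together from library to library, and 2 libraries stood apart from the rest of their groups. The colitis library labelled Il1f5 KO replicate 3 had the highest level of its group for 34 of 34 genes. Its summed level was 5170 CPM, against 2295 and 1936 in replicates 1 and 2. The tumour library Il1f9 KO replicate 2 was likewise higher than replicate 1 for 34 of 34 genes, with sums of 5617 and 1760 CPM. Among Il1f9 WT tumours, replicate 1 was above replicate 2 for 34 of 34 genes, with sums of 2369 and 1183 CPM. The highest library was at least 2-fold above the lowest for 28 of the 34 genes in colitis labelled Il1f5 KO, which is 82.4%, against 8.27% of the 15692 genes at 1 CPM or more. In Il1f9 KO tumours it was 29 of 34, or 85.3%, against 13.9% of all such genes. In Il1f9 WT tumours it was 19 of 34, or 55.9%, against 6.06%. In the other 5 groups it was 1 to 3 of the 34 genes. The largest spread was that of Ifit2, whose product binds RNA and limits translation, with 10.1-fold between the colitis libraries labelled Il1f5 KO.

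**Figure D1:**
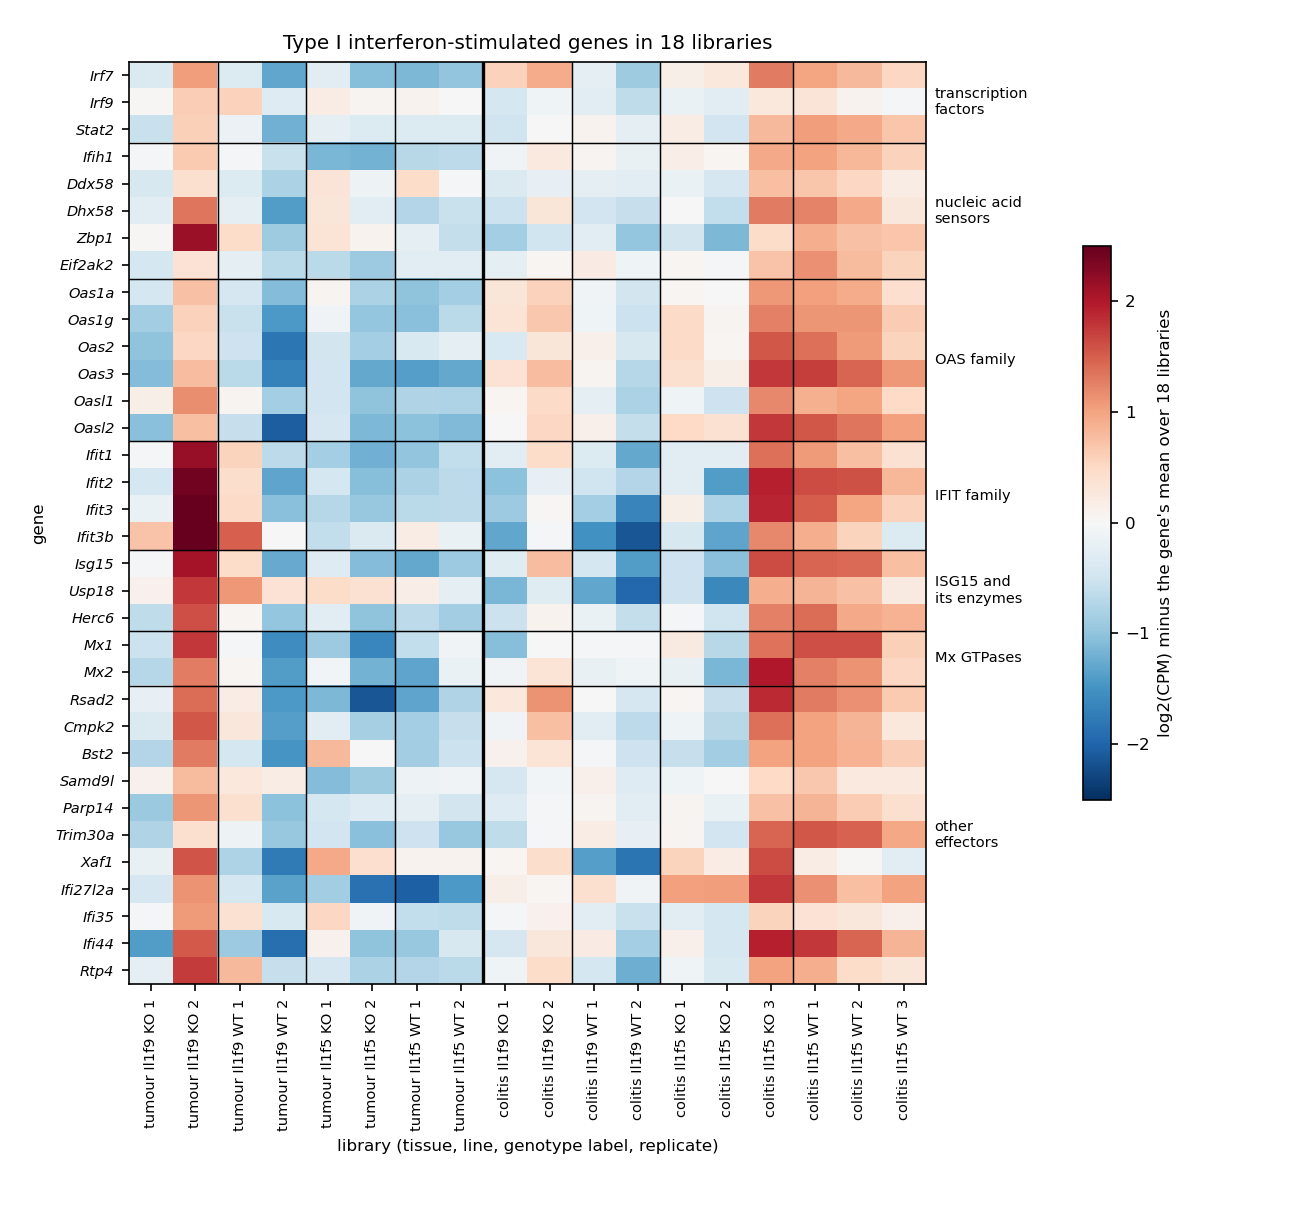
Heat map of log2(CPM) of each of the 34 genes (rows, grouped by role) minus that gene's mean over 18 libraries, with 1 column per library and a thick line between tumours and colitis. The columns of tumour Il1f9 KO 2, colitis Il1f5 KO 3 and the colitis Il1f5 WT libraries are red for nearly every gene, with medians of 1.21, 1.27 and 0.56 to 1.06.

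Per transcript length, Isg15 was the most abundant of the 34 genes, with a mean of 105 FPKM over 18 libraries and a range of 28.6 to 295 (FPKM, from the authors' deposited tables, scale counts to gene length and library size). Bst2, which encodes tetherin and holds budding virus at the membrane, followed at a mean of 90.7 FPKM, and Ifi27l2a at 83.8. Mx2 was lowest at a mean of 1.94 FPKM, after Herc6 at 2.30 and Ifi44 at 3.96. The ranges of these neighbours overlapped. Mx2 is annotated as a polymorphic pseudogene. Ifit3 and Ifit3b, and Oas1a and Oas1g, are near-identical pairs whose reads may have been split between copies. The kit did not keep strand, and 12 of the 34 genes overlap another gene, such as Irf7 with Phrf1 and Rtp4 with Masp1, so their counts may include reads of the neighbour. Irf9 overlaps Rnf31 on its own strand.

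In colitis of the line labelled Il1f5, none of the 34 genes passed the test between KO and WT. The libraries labelled KO split, with replicate 3 higher than replicates 1 and 2 for 34 of 34 genes. Called genes made up 24.7% of all 18299 genes tested. At an unadjusted p under 0.05 there were 1 higher gene (Xaf1) and 2 lower genes (Eif2ak2 and Zbp1), and DESeq2 called 0 higher and 2 lower (the same 2). The median log2 fold change of the 34 genes was -0.33, against -0.01 for all genes tested.

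Isg15, a ubiquitin-like protein that is coupled to other proteins during the antiviral response, had 41.7, 29.3 and 185 CPM in libraries labelled Il1f5 KO, against 165, 160.2 and 101 CPM in Il1f5 WT. The first 2 KO values lay below all WT values and the third above them. Its log2 fold change was -0.74 ± 0.74 (SE, edgeR adjusted p = 0.506). Ifit1, which binds RNA with foreign ends, had 70.6, 69.3 and 221 CPM in libraries labelled KO and 177, 143 and 110 CPM in WT (log2 fold change -0.25 ± 0.54, adjusted p = 0.763). Ifit2 had 84.0, 38.5 and 390 CPM in libraries labelled KO, against 312, 305 and 180.1 CPM in WT. The same split therefore held across the IFIT genes, and the groups overlapped.

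Of the transcription factors, Irf7, which drives further interferon production, had 242, 262 and 534 CPM in colitis labelled Il1f5 KO and 431, 381 and 310.2 CPM in Il1f5 WT (log2 fold change -0.11 ± 0.33, adjusted p = 0.826). Stat2 had 100.4, 63.3 and 156 CPM in libraries labelled KO and 183, 170.3 and 144 CPM in WT (-0.64 ± 0.31, adjusted p = 0.166). Irf9, its DNA-binding partner, had 75.4, 69.2 and 102 CPM in libraries labelled KO and 106, 89.1 and 82.6 CPM in WT (-0.17 ± 0.16, adjusted p = 0.460). All 3 had the highest KO value in replicate 3, and all 3 overlapped between the groups.

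Among the sensors, Zbp1, which binds left-handed nucleic acid and can start cell death, had 83.3, 52.7 and 156 CPM in libraries labelled Il1f5 KO, against 216, 191 and 186 CPM in WT. Every KO value lay below every WT value, which 22.3% of all genes tested showed. The Zbp1 fold change of -1.02 ± 0.39 on the log2 scale did not pass (edgeR adjusted p = 0.0975). Xaf1, a binding partner and inhibitor of an anti-apoptotic protein, went the other way, with 73.4, 57.0 and 153 CPM in libraries labelled KO and 56.7, 50.9 and 41.3 CPM in WT. It was the only 1 of the 34 genes with every KO value above every WT value, which 22.4% of all genes tested showed, and its log2 fold change was 0.93 ± 0.37 (adjusted p = 0.107).

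Without replicate 3 of the colitis libraries labelled Il1f5 KO, 21 of the 34 genes fell and 0 rose, against 13.9% of all genes called lower in that fit. That library was singled out for its highest values in these same 34 genes, so lower values followed in part from the choice. The median log2 fold change was then -1.05. The genes that fell were Ifit2 of the IFIT family, Isg15, Usp18 and Herc6 among ISG15 and the enzymes that remove or attach it, Mx2, 5 of 6 oligoadenylate synthetase genes, 4 of 5 sensors (Ifih1, Ddx58, Eif2ak2 and Zbp1), Stat2, and Rsad2, Bst2, Ifi44, Ifi35, Trim30a and Parp14. In replicate 3, summed T and NK cell markers were 63.4 CPM, against 33.1 and 22.7 CPM in replicates 1 and 2 and 21.6 to 28.1 CPM in WT. Colitis Il1f9 WT libraries had 37.4 to 63.0 CPM of these markers and sums of the 34 genes of 2026 and 1451 CPM. The part of these cells in the result was not tested.

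**Figure D2:**
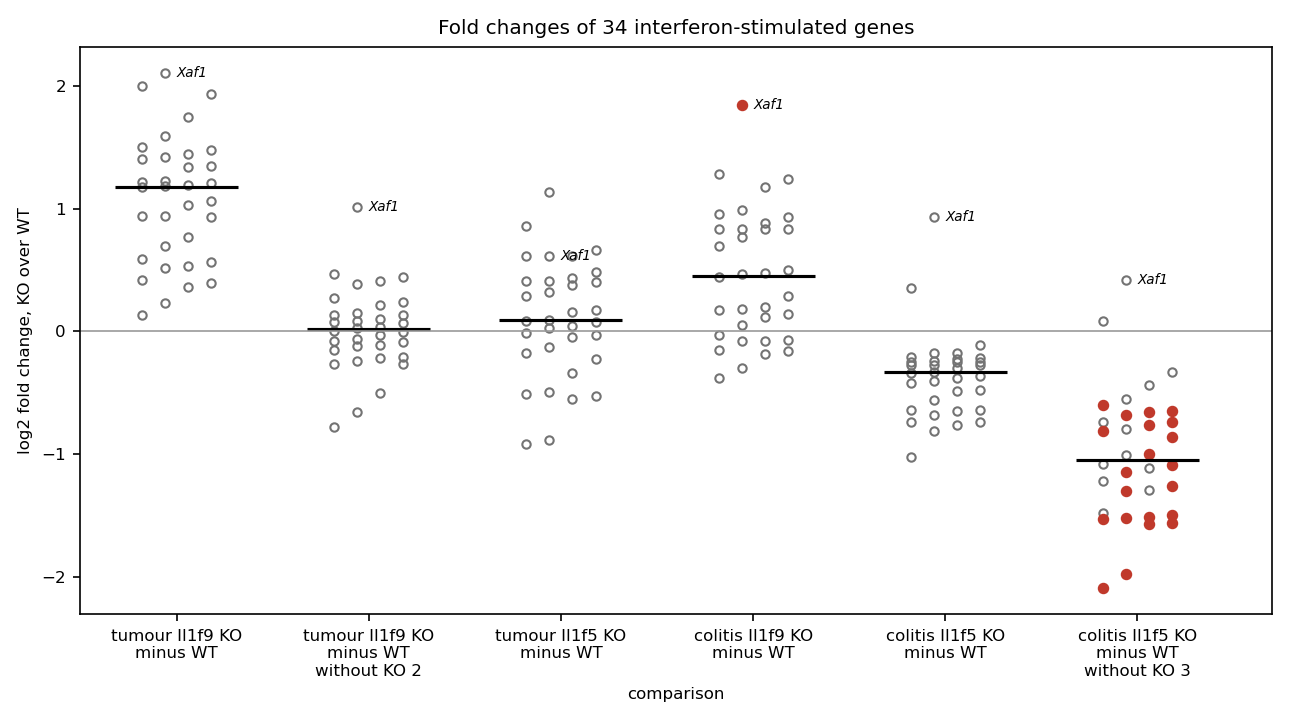
Log2 fold changes, KO over WT, of the 34 genes (1 circle each, filled red where the adjusted p was under 0.05) in each line and tissue, with and without the KO library that stood apart, and the median as a bar. The median is at -1.05 without replicate 3 in colitis labelled Il1f5 KO and at -0.33 with it. In Il1f9 tumours it is at 0.02 without KO replicate 2 and at 1.18 with it. Both libraries were singled out by these same 34 genes, so lower medians without them followed in part from the choice.

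In colitis of the Il1f9 line, 1 of the 34 genes was called: Xaf1 rose, with 51.6 and 67.6 CPM in KO and 19.1 and 14.1 CPM in WT (log2 fold change 1.84 ± 0.47, adjusted p = 0.0346 by edgeR's quasi-likelihood test). The call did not hold without any 1 of the 4 libraries, with an adjusted p of 0.0884 without KO replicate 1, 0.147 without KO replicate 2, 0.0921 without WT replicate 1 and 0.209 without WT replicate 2. Genes called higher made up 9.59% of all genes tested, so 1 of 34 was below that share. At an unadjusted p under 0.05 Xaf1 and Irf7 were higher and 0 were lower, and DESeq2 called 3 higher (Xaf1, Irf7 and Oas1g) and 0 lower. KO libraries lay above WT libraries with no overlap for 16 of the 34 genes, against 30.4% of all genes tested. The median log2 fold change was 0.45, against -0.01 for all genes tested.

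Irf7 had 325 and 415 CPM in colitis Il1f9 KO, against 186 and 118 CPM in Il1f9 WT, with no overlap (log2 fold change 1.28 ± 0.41, adjusted p = 0.0643). Isg15 had 48.7 and 103 CPM in KO and 44.2 and 22.9 CPM in WT (1.18 ± 0.93, adjusted p = 0.430). Ifit1 had 70.2 and 116 CPM in KO and 66.5 and 35.0 CPM in WT (0.88 ± 0.67, adjusted p = 0.411). For both the groups did not overlap, but the lower KO library was close to the higher WT library. Ifit3b had 5.67 and 13.5 CPM in KO and 4.93 and 3.20 CPM in WT (1.25 ± 0.92, adjusted p = 0.393).

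The receptor-proximal factors overlapped in colitis of this line. Stat2 had 62.4 and 87.8 CPM in Il1f9 KO and 94.5 and 76.1 CPM in Il1f9 WT (log2 fold change -0.18 ± 0.38, adjusted p = 0.781). Irf9 had 62.4 and 78.1 CPM in KO and 69.7 and 54.6 CPM in WT (0.18 ± 0.20, adjusted p = 0.579). The fall of macrophage and neutrophil markers given above stands beside these values, and its part in them was not tested. By the authors' deposited table, with a test that the labels do not name, the adjusted p was under 0.05 for 16 of the 34 genes as higher and 0 as lower in this comparison. In the authors' deposited table it was under 0.05 for 0 genes as higher and 1 as lower in colitis labelled Il1f5 KO, for 4 as higher and 1 as lower in tumours labelled Il1f5 KO, and for 0 in either direction in Il1f9 KO tumours. The share of all genes under 0.05 by the authors' test was not computed, so these counts stand without a background.

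In tumours of the line labelled Il1f5, none of the 34 genes passed the test, and 0.028% of all 17859 genes tested did. Samd9l alone was lower at an unadjusted p under 0.05, with 0 higher, and DESeq2 also called it. The median log2 fold change of the 34 genes was 0.09, against 0.01 for all genes, with 21 positive and 13 negative. KO values lay above WT values with no overlap for 8 of the 34 genes, against 33.8% of all genes tested. They lay below with no overlap for 7 of the 34, against 29.9%. Bst2 had 124 and 71.2 CPM in tumours labelled Il1f5 KO and 38.8 and 48.8 CPM in Il1f5 WT, with no overlap (log2 fold change 1.14 ± 0.73, adjusted p = 0.411). Mx1, a GTPase that traps viral components, had 8.22 and 4.98 CPM in tumours labelled KO and 10.2 and 14.6 CPM in WT, with no overlap (-0.92 ± 0.85, adjusted p = 0.564). Samd9l, an antiviral factor that limits translation, had 65.9 and 75.4 CPM in tumours labelled KO and 128 and 132 CPM in WT (-0.89 ± 0.20, adjusted p = 0.0811).

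Isg15 had 47.9 and 28.4 CPM in tumours labelled Il1f5 KO and 24.8 and 31.98 CPM in WT (log2 fold change 0.41 ± 0.88, adjusted p = 0.825). Ifit1 had 47.0 and 37.0 CPM in tumours labelled KO and 42.4 and 54.8 CPM in WT (-0.22 ± 0.78, adjusted p = 0.895). Irf7 had 178 and 104 CPM in tumours labelled KO and 100.2 and 110.3 CPM in WT (0.40 ± 0.54, adjusted p = 0.699). Each of these overlapped. Stat2 had 75.2 and 69.99 CPM in tumours labelled KO and 69.8 and 69.9 CPM in WT (0.04 ± 0.43, adjusted p = 0.964). Irf9 had 95.7 and 88.8 CPM in tumours labelled KO and 89.5 and 84.3 CPM in WT (0.07 ± 0.28, adjusted p = 0.903). Xaf1 had 96.5 and 66.4 CPM in tumours labelled KO and 52.8 and 52.6 CPM in WT, with no overlap (0.61 ± 0.60, adjusted p = 0.587).

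In tumours of the Il1f9 line, all 34 genes had a positive log2 fold change, with a median of 1.18 against -0.02 for all genes tested, and none passed the test. With no filter on low counts, 24 of the 34 were called higher, against 1.48% of all genes in that fit. Genes called either way made up 0.0168% of all genes tested, which is 3 genes. Xaf1, Oasl1 and Ifih1 were higher at an unadjusted p under 0.05 and 0 were lower, and DESeq2 called 0 in either direction. Without KO replicate 2 the median was 0.02, and 18 of 34 genes were positive. That library was singled out for its higher values in these same 34 genes, so a lower median followed from the choice. Only 3 of the 34 genes had both KO values above both WT values, against 15.7% of all genes tested.

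Isg15 had 59.2 and 255 CPM in Il1f9 KO tumours and 83.0 and 25.0 CPM in Il1f9 WT tumours (log2 fold change 1.501 ± 0.89, adjusted p = 0.692). Ifit1 had 82.2 and 384 CPM in KO and 124 and 53.6 CPM in WT (1.35 ± 0.79, adjusted p = 0.684). In both, KO replicate 1 lay between the WT libraries. Ifi44, an interferon-induced gene whose product has been found to limit virus replication, had 6.80 and 52.5 CPM in KO and 9.57 and 4.87 CPM in WT (2.00 ± 0.997, adjusted p = 0.647).

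Irf7 had 169 and 449 CPM in Il1f9 KO tumours and 171 and 88.3 CPM in WT (log2 fold change 1.22 ± 0.55, adjusted p = 0.618). Stat2 had 60.4 and 134 CPM in KO and 79.5 and 38.3 CPM in WT (0.69 ± 0.43, adjusted p = 0.694). Irf9 had 86.7 and 129.6 CPM in KO and 125 and 67.9 CPM in WT (0.14 ± 0.28, adjusted p = 0.918). Between the KO libraries Irf9 differed 1.49-fold, the least of the 34 genes, and Ifi44 differed 7.72-fold, the most. Xaf1 had 44.0 and 149 CPM in KO and 29.1 and 14.7 CPM in WT, with no overlap (2.11 ± 0.63, adjusted p = 0.479).

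KO replicate 2 of the Il1f9 tumours also stood apart in other genes. Its interferon gamma transcript Ifng was at 17.0 CPM, against 0.241 CPM in KO replicate 1 and 2.21 and 0.287 CPM in WT. Cxcl10, a chemokine induced by interferons, was at 345 CPM, against 8.01 CPM in KO replicate 1 and 109 and 7.85 CPM in WT. Siglech, a surface receptor gene of plasmacytoid dendritic cells, was at 2.52 CPM (42 counts), against 0.120 CPM in KO replicate 1 and 0.245 and 0.172 CPM in WT. The summed list of 8 markers of these cells did not follow Siglech. It was 452 to 593 CPM in Il1f9 KO tumours and 567 to 700 CPM in WT. Of 7 tested markers 0 were called, with a median log2 fold change of -0.36. In KO replicate 2, summed fibroblast markers were 2050 CPM, against 738 CPM in KO replicate 1 and 909 to 1128 CPM in WT. Smooth muscle markers there were 795 CPM, against 84.1 CPM in KO replicate 1 and 97.6 to 165 CPM in WT. Immune markers also spread between the KO libraries. T and NK cell markers ran from 22.5 to 61.8 CPM in KO, against 27.5 to 32.7 CPM in WT. Macrophage markers ran from 420 to 682 CPM, against 449 to 482 CPM in WT. Neutrophil markers ran from 1002 to 1774 CPM, below the 1831 to 4184 CPM of WT. The part of these cell types in the result was not tested.

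**Figure D3:**
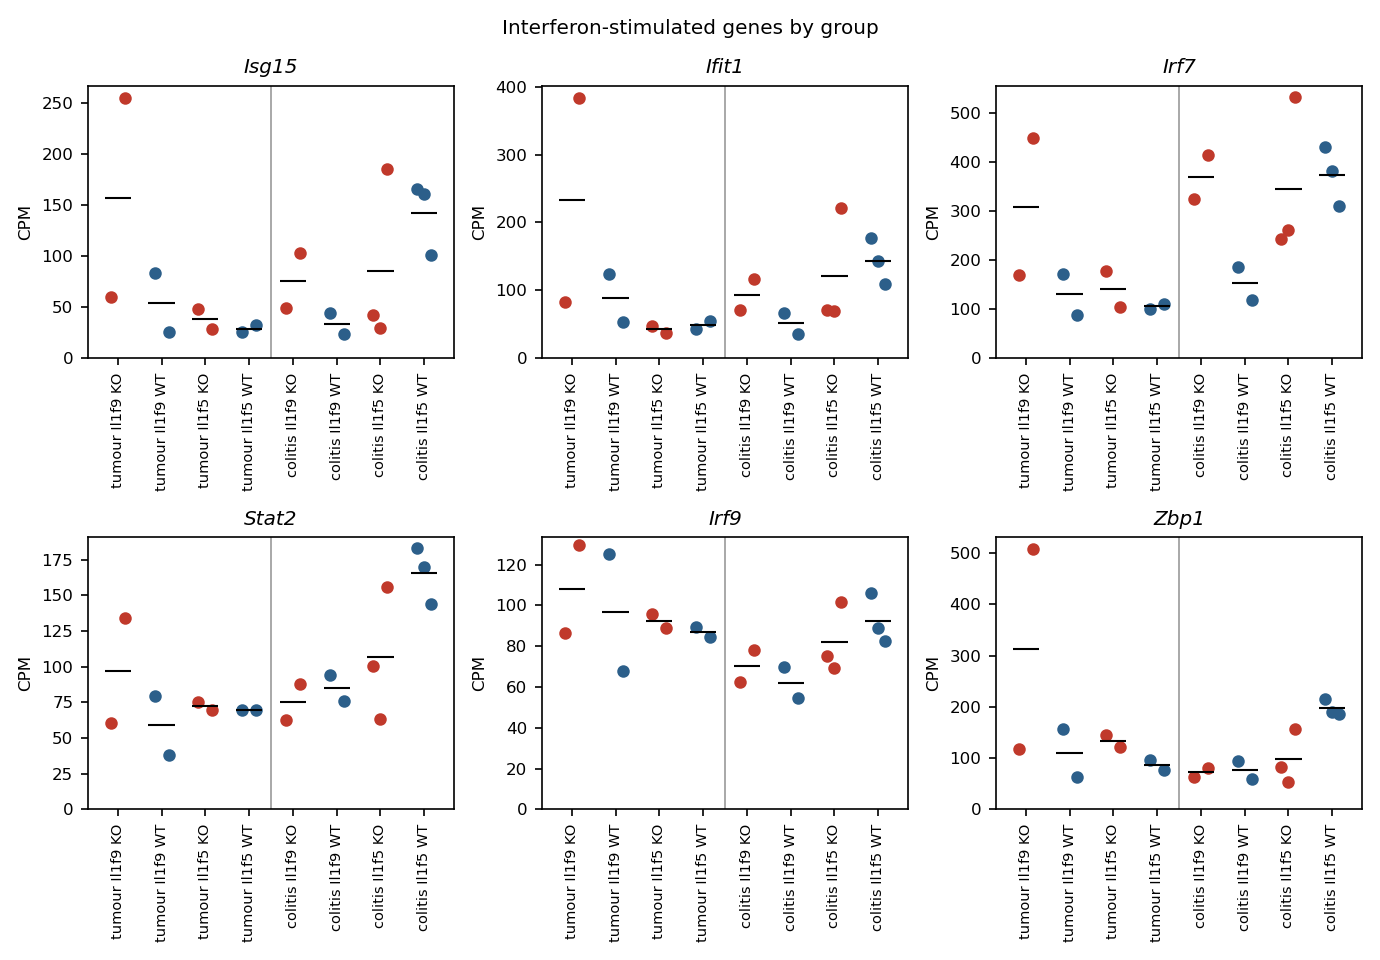
CPM of Isg15, Ifit1, Irf7, Stat2, Irf9 and Zbp1 in each library (circles; red for libraries labelled KO, blue for WT) with group means as bars, tumours on the left and colitis on the right. One KO circle stands far above the others in tumour Il1f9 KO and in colitis labelled Il1f5 KO, as for Isg15 at 255 and 185 CPM.

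Whether the KO effects differed was tested directly. In colitis, the Il1f9 effect minus the effect labelled Il1f5 was positive for 33 of 34 genes, with a median of 0.85 on the log2 scale, but 0 were called, against 24.8% of all genes tested. At an unadjusted p under 0.05 Irf7 and Oas1g were higher, and DESeq2 called 1 (Oas1g). Without replicate 3 of the libraries labelled Il1f5 KO, 20 of 34 genes were called higher in this difference, against 14.8% of all genes in that fit, and 0 lower. That library was singled out by these same genes, so the count is not independent of the choice. In tumours the same difference had a median of 0.94 and 0 calls, against 0.0784% of all genes. There 3 genes (Samd9l, Ifih1 and Eif2ak2) were higher at an unadjusted p under 0.05, and DESeq2 called 2 (Samd9l and Ifih1). Without Il1f9 KO replicate 2, which was also singled out by these same genes, this median was -0.24.

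Between tissues, the effect labelled Il1f5 KO had a tumour minus colitis median of 0.46 with 0 calls, against 18.1% of all genes tested. Ifi35 alone was higher at an unadjusted p under 0.05, and DESeq2 called 0. The Il1f9 KO effect had a median difference of 0.56 with 0 calls, against 2.47% of all genes, 0 at an unadjusted p under 0.05 and 0 by DESeq2. Without Il1f9 KO replicate 2 of the tumours, a library singled out by these same genes, that median was -0.39.

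In colitis, all 34 genes were lower in Il1f9 WT than in Il1f5 WT, with no overlap between the groups, which 23% of all genes tested showed. The median log2 fold change was -1.30, against 0.01 for all genes. In the fit over all colitis libraries 0 were called, against 4.93% of all genes. At an unadjusted p under 0.05, 20 were lower, and DESeq2 called 17. The share of all genes was not computed for either measure, so these counts stand without a background. In a fit of these 2 groups alone, 29 of 34 fell, against 5.25% of all genes called lower. Ifit3 had the lowest log2 fold change, -2.27, with 17.6 and 10.1 CPM in Il1f9 WT and 90.4, 62.7 and 47.3 CPM in Il1f5 WT. The smallest p was that of Oas1g, one of the enzymes that make the oligoadenylates that activate RNase L. It had 39.0 and 29.1 CPM in Il1f9 WT and 91.0, 90.4 and 65.7 CPM in Il1f5 WT (-1.27 ± 0.35, adjusted p = 0.0771). Macrophage markers moved the other way, with 464 to 599.6 CPM in Il1f9 WT, against 300.2 to 322 CPM in Il1f5 WT, and 7 of 10 called higher. Their part in the result was not tested.

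In tumours the WT groups overlapped for most of the 34 genes, with a median of 0.29 for Il1f9 WT minus Il1f5 WT and 0 calls, against 28.5% of all genes tested. Il1f9 WT lay above Il1f5 WT with no overlap for 6 of the 34 genes, against 37.6% of all genes tested. It lay below with no overlap for 3, against 36.0%. At an unadjusted p under 0.05 Ddx58, which encodes the RNA sensor RIG-I, was lower and 0 were higher, and DESeq2 called the same gene. Ddx58 had 35.4 and 25.8 CPM in Il1f9 WT tumours and 61.2 and 43.7 CPM in Il1f5 WT tumours. The tumour counts of the lines were deposited in separate tables, so line and table cannot be told apart.

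**Figure D4:**
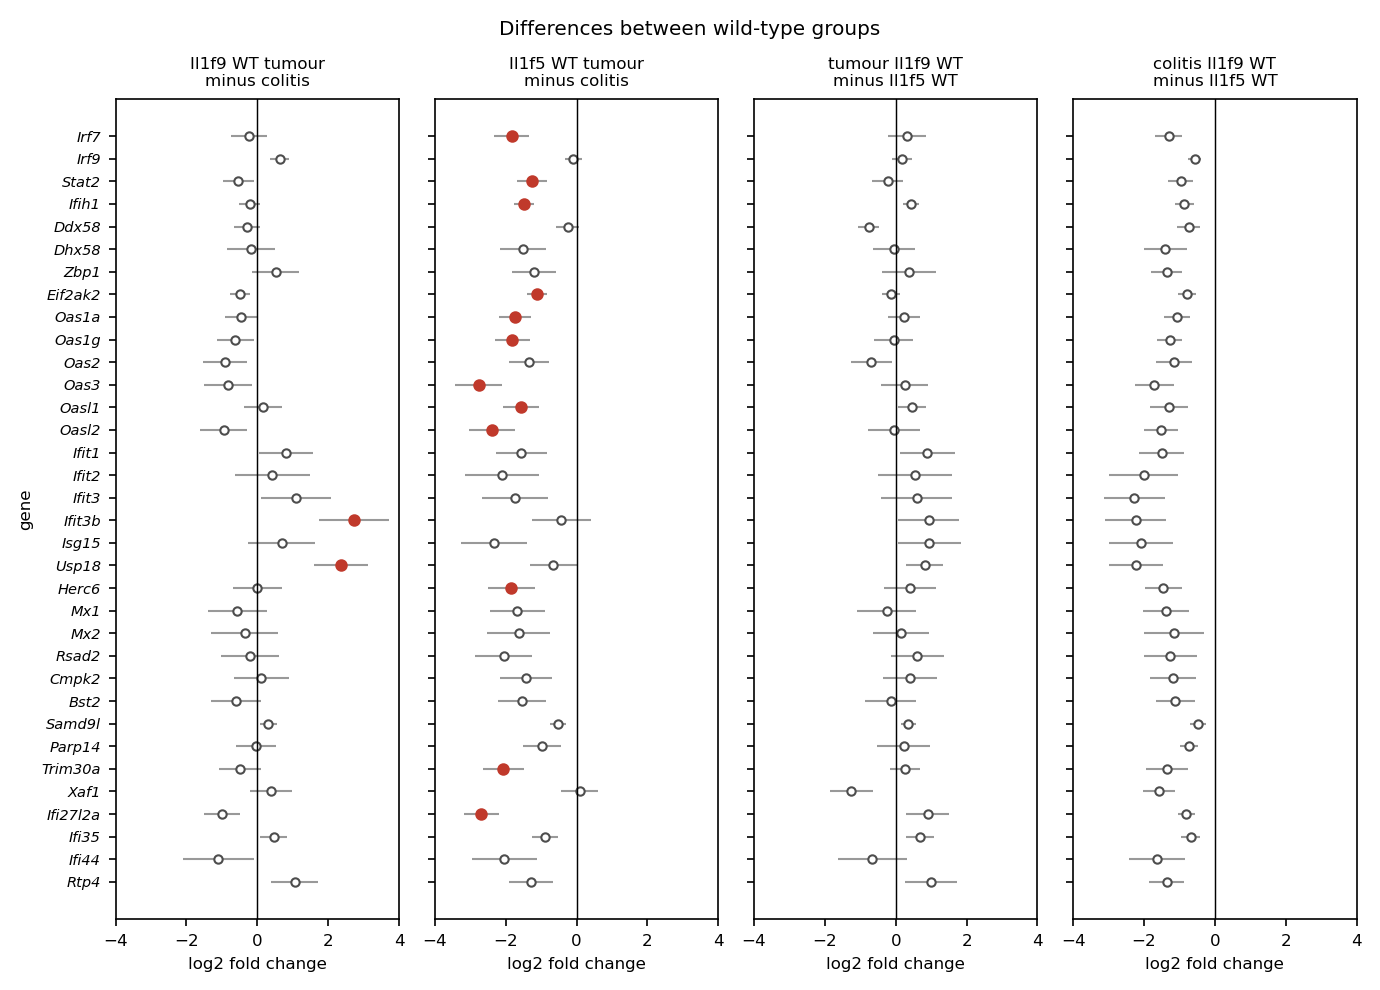
Log2 fold changes (circles, filled red where the adjusted p was under 0.05) with standard errors (lines) of the 34 genes between WT groups: tumour minus colitis in each line, then Il1f9 minus Il1f5 in each tissue. In Il1f5 WT 12 genes are filled, all to the left of 0, and in the colitis panel 34 of 34 circles lie left of 0 with a median of -1.30.

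Between tumour and colitis, 12 of 34 genes fell in the Il1f5 line and 0 rose, against 21.7% of all genes called lower. The median log2 fold change was -1.55. Tumour values lay below colitis values with no overlap for 30 of 34 genes, against 35.5% of all genes tested. Ifih1, which encodes the long RNA sensor MDA5, had 57.0 and 58.3 CPM in Il1f5 WT tumours and 184, 165 and 137 CPM in Il1f5 WT colitis (-1.49 ± 0.28, adjusted p = 0.000766). Ifi27l2a had 7.26 and 11.1 CPM in tumours and 66.6, 50.3 and 60.4 CPM in colitis (-2.69 ± 0.50, adjusted p = 0.00117). Eif2ak2, the kinase PKR that halts translation on double-stranded RNA, had 55.3 and 56.6 CPM in tumours and 148, 116 and 99.0 CPM in colitis (-1.11 ± 0.27, adjusted p = 0.00520).

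The oligoadenylate synthetase family held 5 of the 12 called genes. Oas3 had 22.9 and 24.7 CPM in Il1f5 WT tumours and 196, 163 and 127 CPM in Il1f5 WT colitis (log2 fold change -2.76 ± 0.67, adjusted p = 0.00701). Oas1a, Oas1g, Oasl1 and Oasl2 also fell, and Oas2 did not pass (adjusted p = 0.0761). The other called genes were Irf7, Stat2, Trim30a and Herc6. Tissue goes with the treatment, its length and the deposited table, which cannot be told apart. Smooth muscle markers were 255 to 256 CPM in tumours, against 1981 to 2223 CPM in colitis, with 8 of 8 called lower. Markers of colon epithelium were 8995 to 11348 CPM in tumours, against 21118 to 24383 CPM in colitis, with 6 of 10 called lower and 1 higher. The part of these cell types in the result was not tested. Without tumour WT replicate 1 the count was 3, and without tumour WT replicate 2 it was 5.

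In the Il1f9 line, 2 of 34 genes rose in WT tumours over WT colitis, against 28.6% of all genes called higher, and 0 fell. Usp18, the protease that removes ISG15 and damps the receptor, had 84.4 and 51.1 CPM in tumours and 16.1 and 10.2 CPM in colitis (log2 fold change 2.37 ± 0.76, adjusted p = 0.0195). Ifit3b had 39.3 and 14.2 CPM in tumours and 4.93 and 3.20 CPM in colitis (2.72 ± 0.99, adjusted p = 0.0351). The other 32 genes did not pass, and the median was -0.20. Of the markers in this comparison, 8 of 8 of smooth muscle, 7 of 8 of fibroblasts and 6 of 8 of endothelium were called lower and 3 of 8 of neutrophils higher, and their part in the result was not tested. The count was 0 without tumour WT replicate 1 and 0 without either colitis WT library, and 3 without tumour WT replicate 2.

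Xaf1 was the only 1 of the 34 genes with every KO value above every WT value in all 4 KO comparisons, which 0.37% of the 16774 genes tested in all 4 showed. It also departed from the other genes within each library. On the log2 scale, Xaf1 minus the median of the other 33 genes was 0.40, 0.55 and 0.47 in colitis labelled Il1f5 KO, against -0.90, -0.83 and -0.87 in Il1f5 WT. In colitis of the Il1f9 line it was 0.08 and -0.02 in KO, against -1.20 and -1.25 in WT. In Il1f9 tumours it was 0.04 and 0.20 in KO, against -0.99 and -0.82 in WT, and in the line labelled Il1f5 it was 1.17 and 0.98 in KO tumours, against 0.76 and 0.65 in WT tumours. The libraries labelled Il1f5 KO replicate 3 and Il1f9 KO replicate 2, which stood apart in all 34 genes, did not stand apart in this measure. No other gene was non-overlapping in the same direction in all 4 comparisons on this relative scale. These values chose Xaf1 among the 34 genes for this description and were not tested.

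Xaf1 lies at chr11:72301629-72313733 (plus strand, as in the deposited tables and GENCODE M21, GRCm38), while Il1f5 and Il1f9 lie on chromosome 2. A list of 10 inflammasome and Schlafen genes of chromosome 11 was compared with it. Not all of them lie near Xaf1, with Slfn8 at chr11:83002158-83020810. In colitis labelled Il1f5 KO 5 of 10 were called lower, against 11% of all genes, among them Slfn8 (log2 fold change -4.29) and Nlrp1a (-4.73), and in colitis Il1f9 KO 7 of 10, against 9.98% of all genes, among them Slfn8 (-4.61) and Slfn1 (-2.97). Nlrp1b, an inflammasome sensor at chr11:71153102-71230733, had 1.48, 1.07 and 1.49 CPM in colitis labelled Il1f5 KO, against 14.8, 14.4 and 17.2 CPM in Il1f5 WT (log2 fold change -3.52 ± 0.19, adjusted p = 8.75e-06). In colitis Il1f9 KO it had 0.414 and 0.347 CPM, against 19.2 and 15.6 CPM in Il1f9 WT (-5.50 ± 0.27, adjusted p = 4.05e-06). In tumours 0 of 8 tested genes of the list were called between KO and WT in either line. Of all genes, 0.028% were called there for the label Il1f5 KO and 0.0168% for Il1f9 KO. Nlrp1b was at 0.475 to 4.01 CPM over the 8 tumour libraries. What these differences share with that of Xaf1 was not tested.

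**Figure D5:**
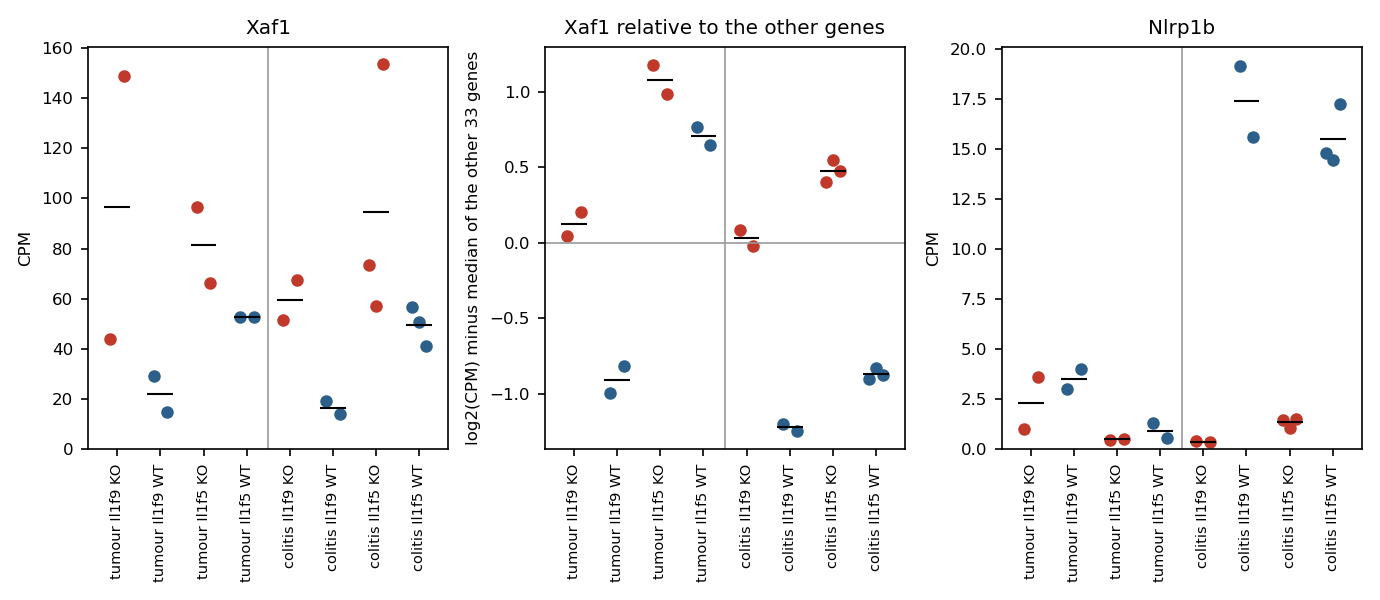
Xaf1 in CPM (left), Xaf1 in log2(CPM) minus the median of the other 33 genes (middle) and Nlrp1b in CPM (right) by library, with red for libraries labelled KO, blue for WT and bars for group means. The middle panel separates KO from WT in each line and tissue, for example 0.08 and -0.02 against -1.20 and -1.25 in colitis of the Il1f9 line.

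Transcripts of the interferons themselves were scarce. Of 20 type I and III interferon genes, 12 had 0 counts in all 18 libraries, which allows up to 3 counts in each. The summed ligand count per library was 0 to 28, of which Ifne, an interferon of epithelium, gave 26 in 1 library. Ifnb1, the early type I interferon, had 3 counts in all. They were in the colitis library labelled Il1f5 KO replicate 3, with 2 counts, and in the tumour library Il1f9 KO replicate 2, with 1. Ifnl2, a type III interferon, had 6 counts, 4 and 2 in the same 2 libraries. These 2 libraries were those with the highest summed level of the 34 genes, and at 1 to 4 counts the levels cannot be compared. Other ligands were spread differently, with 28 counts of Ifnk over 12 libraries and 12 counts of Ifnz over 7. In the colitis library Il1f5 WT replicate 1, where the 34 genes summed to 4735 CPM, Ifnk at 3 counts was the only ligand.

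Among the 4 KO comparisons, receptor genes were called in 1. Of all genes tested, 11% were called lower and 13.7% higher in colitis labelled Il1f5 KO, and 9.98% were called lower in colitis Il1f9 KO. In colitis Il1f9 KO 2 of 6 receptor genes fell: Ifnar2 had 11.3 ± 2.19 CPM in KO and 24.5 ± 1.22 in WT (SD, n = 2 each; log2 fold change -1.12 ± 0.15, adjusted p = 0.000775), and Ifnar1 had 43.8 ± 0.445 CPM in KO and 68.4 ± 5.04 in WT (-0.64 ± 0.10, adjusted p = 0.00147). In the other 3 KO comparisons 0 of 6 were called. Of the kinases, STATs and IRFs outside the 34 genes, 3 of 10 fell in colitis labelled Il1f5 KO (Irf1 -0.96 on the log2 scale, Irf8 -0.90 and Irf5 -0.41), and 4 of 10 fell in colitis Il1f9 KO (Irf5 -1.34, Tyk2 -0.59, Jak1 -0.37 and Stat3 -0.55). Of 12 negative regulators, 3 rose and 1 fell in colitis labelled Il1f5 KO, the risers being Axl (0.63), Mertk (0.35) and Ptpn2 (0.36). Socs1, which blocks the kinases, fell, with 9.01 ± 3.16 CPM in libraries labelled KO and 42.7 ± 4.94 in WT (SD, n = 3 each; -2.25 ± 0.24, adjusted p = 0.000829). In colitis Il1f9 KO 4 of 12 fell (Ptpn1, Ptpn6, Axl and Socs3), among them Socs3, with 83.3 ± 26.4 CPM in KO and 289 ± 2.32 in WT (SD, n = 2 each; -1.80 ± 0.31, adjusted p = 0.00595). Of 19 tested sensors and adaptors outside the 34 genes, 6 fell in colitis labelled Il1f5 KO, where the smallest p were those of Samhd1 (log2 fold change -1.26), Tlr9 (-1.21) and Irak1 (-0.24). In colitis Il1f9 KO 11 of 19 fell, with the smallest p for the kinase gene Ikbke (-1.10), Tmem173 (-1.07), which encodes the adaptor STING, and Ifi204 (-1.98). In both tumour KO comparisons 0 genes of the receptor, kinase, regulator and sensor lists were called. Of all genes, 0.028% were called there for the label Il1f5 KO and 0.0168% for Il1f9 KO.

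A list of 24 genes of the response to interferon gamma, a type II interferon of T and NK cells, was read beside the 34 genes. In colitis labelled Il1f5 KO 20 of 24 fell, against 11% of all genes called lower, and 0 rose, with a median log2 fold change of -1.85. Gbp4, a guanylate-binding protein, had 13.8 ± 5.42 CPM in libraries labelled KO and 102 ± 15.9 in WT (SD, n = 3 each; -2.88 ± 0.33, adjusted p = 0.00231). Their summed level in libraries labelled KO was 862, 654 and 1476 CPM, each below the WT range of 3096 to 3560 CPM, so replicate 3 was also the highest here but did not reach WT. Ifng itself had 0.212, 0.0488 and 0.497 CPM in libraries labelled KO, against 2.57, 2.11 and 5.48 CPM in WT. In colitis Il1f9 KO 5 of 24 fell, against 9.98% of all genes, and 0 rose, with a median of -0.94 and the smallest p for Nos2 (-3.20), Gbp5 (-2.58) and Gbp4 (-2.38). In tumours 0 of 24 were called between KO and WT in either line. Few genes of any kind were called there, 0.028% of all genes for the label Il1f5 KO and 0.0168% for Il1f9 KO. The median log2 fold change of the list was 0.75 for the label Il1f5 KO and 1.43 for Il1f9 KO. The Il1f9 KO tumours differed widely, with summed levels of 1295 and 11026 CPM, against 1017 and 4221 CPM in WT. Tumours labelled Il1f5 KO had 1955 and 2199 CPM, against 953 and 1451 CPM in WT. Whether the 2 lists differed from each other was not tested.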

How the data were processed

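Bulk RNA-seq of 18 mouse libraries was used (10 µg total RNA, poly(A) selection, 150-bp paired reads, a kit that does not keep strand, per the labels' protocols). The submitters' processing notes name Trim Galore 0.6.4, a read trimmer, HISAT2 2.0.5, an aligner, and featureCounts 2.0.0, a read counter (genome build: not given in the sources used here). Raw read counts per gene, FPKM and, from the authors' own comparisons, log2 fold changes and p-values were deposited. Gene coordinates in the deposited tables equal those of GENCODE M21 (GRCm38) for all 34 genes.

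From the counts, CPM were computed with library totals scaled by TMM factors (0.860 to 1.16) over 18 libraries. Differences were tested with edgeR 4.0.16 (quasi-likelihood F test, TMM, filterByExpr, robust) in R 4.3.3, all groups of a tissue, or all 8 groups for comparisons between tissues, sharing 1 estimate of spread. P-values were adjusted by Benjamini-Hochberg over all genes tested, called under 0.05, and ± on a log2 fold change is its standard error. DESeq2 1.42.0, its size factors, no filter on low counts, a replicate block, only the groups compared and leaving out each library were the alternatives. For counts at an unadjusted p or by DESeq2, the share of all genes was not computed. The fits were tested on simulated data. Each KO group was compared with the WT of its line, then lines, tissues and KO effects with each other, 12 comparisons in all. Named by rule were Isg15, Ifit1, Irf7, Stat2, Irf9 and Xaf1 in every KO comparison, with up to 6 called genes of smallest p and the 2 uncalled genes of largest change, up to 4 called genes of smallest p elsewhere, and up to 3 per list. Ifit2, Ifit3, Oas1g, Samd9l, Ddx58, Cxcl10, Ifng and Siglech were named after their values were seen. The ligands Ifnb1, Ifnl2, Ifne, Ifnk and Ifnz were also named outside the rule. The 34 genes and all lists were chosen with earlier results of these data known. The design text counts colitis samples as mice. For tumours it gives only n, so p-values there measure the spread between samples, which may be technical. Differences between replicates exceeded sampling noise in every pair, so no library was a copy. Ages and the KO alleles were not given. FPKM served only to compare levels between genes.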

Additional observations from a re-analysis of the deposited data

Results flagged for a closer look

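Zbp1 was flagged because the libraries labelled Il1f5 KO lay on opposite sides of WT in the 2 tissues. In tumours both libraries labelled KO were above both WT libraries (144.8 and 121.8 CPM, against 96.4 and 76.3 CPM). In colitis all 3 libraries labelled KO were below all 3 WT libraries. The difference between the 2 effects, tumour minus colitis, was 1.65 ± 0.85 on the log2 scale and did not pass edgeR's test (adjusted p = 0.203) or DESeq2's (adjusted p = 0.139). Il1f5 reads were present in the libraries labelled Il1f5 KO, so the direction is that of the labels.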

How the results depend on the processing

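Counts in this section are of the 34 genes, higher or lower as stated, and the cause of each change was not tested. A setting can change how many of all genes are called, and that share is given only where stated above. These counts therefore do not show a change particular to the 34 genes. DESeq2 called 2 lower for the colitis label Il1f5 KO, 3 higher for colitis Il1f9 KO, 1 lower for the tumour label Il1f5 KO, 17 lower between colitis WT lines, 1 lower between tumour WT lines, 1 and 2 higher for the colitis and tumour differences of KO effects, 20 lower for Il1f5 WT between tissues, and 3 higher and 1 lower for Il1f9 WT between tissues. With no filter on low counts, colitis Il1f9 KO had 0 higher, the tumour label Il1f5 KO 5 higher and 2 lower, tumour Il1f9 KO 24 higher, tumour WT lines 10 higher and 3 lower, and the tumour difference of KO effects 13 higher. With no filter, the Il1f5 KO effect between tissues had 15 higher and 1 lower, that of Il1f9 12 higher, Il1f5 WT between tissues 30 lower, and Il1f9 WT between tissues 10 higher and 12 lower. With only the groups compared, colitis Il1f9 KO had 4 higher, the tumour label Il1f5 KO 1 lower, colitis WT lines 29 lower, tumour WT lines 2 lower, Il1f5 WT between tissues 29 lower and Il1f9 WT between tissues 2 lower. With the replicate block, colitis Il1f9 KO had 0 higher, Il1f5 WT between tissues 4 lower and Il1f9 WT between tissues 0 higher. Deviations of same-numbered samples correlated from -0.31 to 0.13 in colitis and from -0.23 to 0.15 in tumours. In groups of 2 the deviations from the group mean mirror each other, so these values cannot show whether samples were paired. The labels do not state a pairing.

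Leaving out each library in turn gave 0 to 1 higher and 0 to 21 lower for the colitis label Il1f5 KO (1 without KO replicate 2, 21 without KO replicate 3), and 0 higher for colitis Il1f9 KO each time. It gave 0 to 20 higher for the colitis difference of KO effects, 0 to 1 higher for that in tumours, 0 to 2 higher for the Il1f5 KO effect between tissues, 3 to 11 lower for Il1f5 WT between tissues and 0 to 3 higher for Il1f9 WT between tissues. Where a group was left with 1 library, that library was assumed to vary like the other groups. Uncalled log2 fold changes that crossed 0 were Ifit1 (-1.01 to 0.0262) and Irf7 (-0.55 to 0.0888) for the colitis label Il1f5 KO, and Stat2 (-0.46 to 0.0428) and Irf9 (-0.0068 to 0.36) for colitis Il1f9 KO. In tumours they were Isg15 (-0.0383 to 0.74), Irf7 (-0.0617 to 0.74), Stat2 (-0.0356 to 0.0937) and Irf9 (-0.0072 to 0.13) for the label Il1f5 KO, and Ifit1 (-0.11 to 2.09), Irf9 (-0.25 to 0.66) and Ifi44 (-0.0788 to 2.81) for Il1f9 KO. With n = 2 in 6 of 8 groups, 1 library could decide a count.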
